A study of Mus musculus with 32 samples.

Results

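RNA of 16 primary melanomas from female mice, 8 without and 8 with deletion of Cdh1, was compared at the level of cell types and pathways. They were chosen by their labels alone, as the ΔEcad female and Ecad female tumours among 32 tumours of both sexes. All 16 came from mice labelled Tyr::NrasQ61K, an activated NRAS oncogene under the tyrosinase promoter, Cdkn2a-/+, with 1 copy of that tumour suppressor gene left, and Cdh1F/F, with both copies of Cdh1 floxed. Ecad mice carried no further allele (°/° in the labels). The labels of ΔEcad mice have Tyr::NRAS/° in that place, where the study's methods name a Cre recombinase driven by the tyrosinase promoter, so that Cdh1 is deleted in melanocytes while other cells keep it. The labels give no age and do not tie tumours to mice. Tumours that shared a mouse would not be independent, and p-values would then be too small. The p-values measure the spread between tumours, estimated over all 32, which may in part be technical. The male tumours, 8 of each genotype, entered the model and are given only where their values stand beside those of the females.

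E-cadherin, the product of Cdh1, is the adhesion protein by which melanocytes are held to the keratinocytes around them in the epidermis, and its cytoplasmic tail binds beta-catenin. Keratinocytes themselves make it in large amounts, as does the hair follicle. A primary melanoma of the skin is a mixture of melanocytic tumour cells with blood vessels, fibroblasts, immune cells and whatever skin was taken with it, and RNA of the whole piece sums over all of them. In such bulk RNA, fewer cells of a type and less RNA per cell cannot be told apart.

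Total counts were 24036333 to 63923086 in Ecad females and 30021348 to 48232383 in ΔEcad females. All 13 melanocytic markers listed had enough counts to test, and Dct, a melanin enzyme, was at 6112 to 50656 TPM (transcript abundance scaled to length and library size) in Ecad and 1466 to 20651 TPM in ΔEcad females. Some libraries stood apart. ΔEcad female 3 had 0 TPM of the haemoglobin gene Hbb-bs, where the other ΔEcad females had 639.7 to 3129 TPM, and was lowest of its group in the endothelial and macrophage lists. Ecad female 3 held transcripts of salivary gland. The library labelled ΔEcad male 2 went against its sex label in its sex-linked genes, and is no part of the female comparison except through the shared spread. Several results of the female comparison are therefore given with and without these libraries.

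Cdh1, the targeted gene (ENSMUSG00000000303, GRCm38 chromosome 8, 106603351 to 106670246), was examined first. Its level was 151, 21.6, 102, 5.96, 39.6, 2.16, 15.2 and 66.8 TPM in Ecad females 1 to 8, and 118, 143, 0.17, 4.27, 4.51, 48.2, 45.1 and 78.3 TPM in ΔEcad females 1 to 8. The groups overlapped throughout, and the difference of -0.002 on the log2 scale (SE 0.87, adjusted p 0.999 by edgeR) was within the spread, so that the genotype of each tumour, and every direction below, rests on the label. The sign of so small a value has no meaning, and it turned in 11 of 22 alternatives. With the keratinocyte and melanocytic marker levels as covariates the log2 fold change was -2.91 (adjusted p 0.268 by edgeR). Krt14, a keratin of the basal epidermis, was at 0, 0 and 1.48 TPM in ΔEcad females 3, 4 and 5, which had the least Cdh1, and at 2547 to 9186 TPM in the other ΔEcad females. Ecad females other than 3 and 5 had at most 1 TPM of Krt14, and their Cdh1 ranged from 2.16 to 151 TPM. Of these, Ecad females 1 and 8 had the most Cdh1, 151 and 66.8 TPM, with 0.35 and 0.43 TPM of Krt14. The rest had 2.16 to 21.6 TPM of Cdh1, which overlapped the 0.17 to 4.51 TPM of ΔEcad females 3, 4 and 5. A relation of Cdh1 to Krt14 was not tested.

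**Figure D1:**
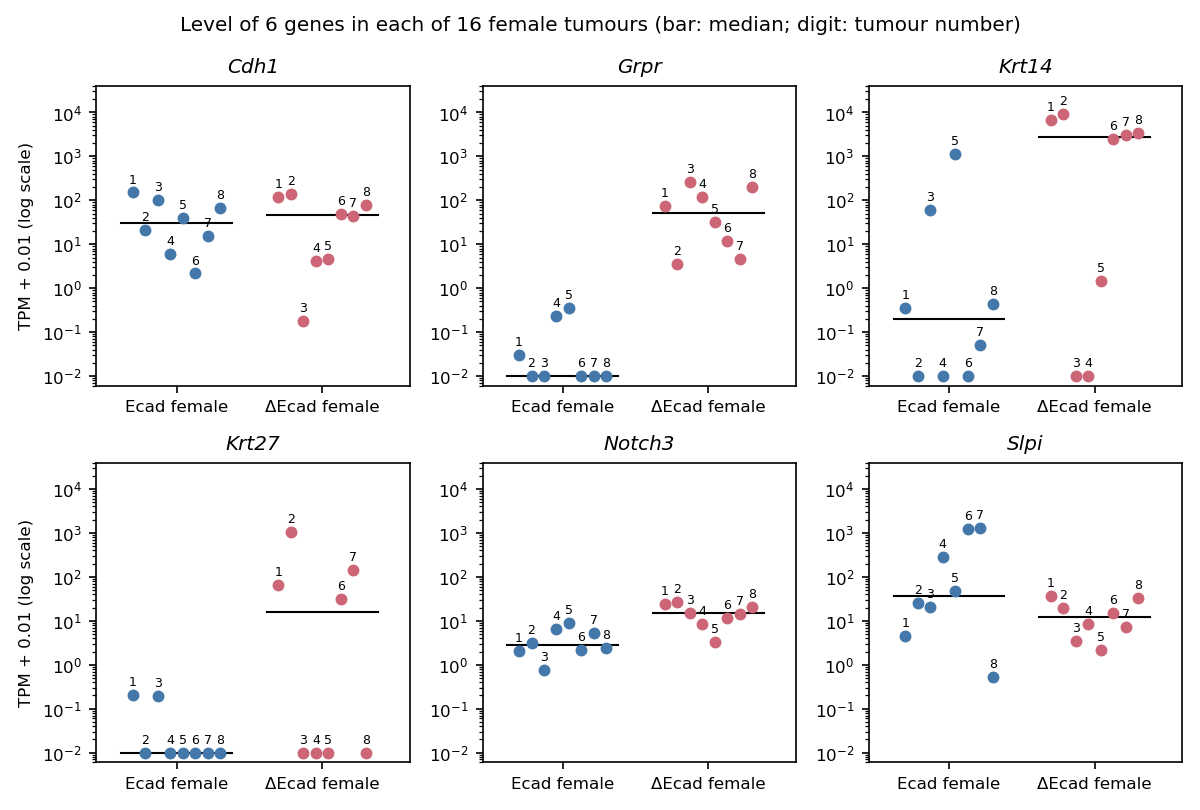
Level of Cdh1, Grpr, Krt14, Krt27, Notch3 and Slpi in each Ecad female (blue) and ΔEcad female (red) tumour, as TPM + 0.01 on a log axis, with the tumour number above each point and a bar at the median. Cdh1 overlapped between genotypes, Grpr lay above 3 TPM in every ΔEcad female and below 0.4 TPM in every Ecad female, and Krt14 and Krt27 were high in some ΔEcad tumours and near 0 in others.

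Of 17717 genes with enough counts to test, 205 were called higher in ΔEcad females, 1.16% of the genes tested, and 8 were called lower, 0.0452%. The 213 genes of both directions were 1.2%. Calls were made with edgeR's quasi-likelihood test, where the p adjusted over all genes had to be under 0.05 and the change more than 1 on the log2 scale in either direction. Without the adjustment, 1988 genes with a higher level (11.2%) and 731 with a lower level (4.13%) had a p under 0.05. The median log2 fold change of all genes was -0.02. Apart from Grpr, the 213 called genes had adjusted p-values between 0.0393 and 0.0497 by edgeR, just under the threshold. Each of them except Grpr lost its call in at least 1 fit with a tumour left out. In a fit of the 16 female tumours alone 1 gene was called, Grpr, 0.00635% of those tested there, and leaving out a single tumour gave between 1 and 672 genes higher and between 0 and 45 lower. Of the 16 fits with a tumour left out, 10 called at most 3 genes. Only Grpr was called in all 16. Without Ecad female 3 it was the 1 gene still called higher, so that every other call named below ends there, and without ΔEcad female 3 the count was 471. DESeq2 called 1182 higher (6.67%) and 99 lower (0.559%). Lists of genes are therefore described below by their counts and medians beside those of all genes. The lists were chosen with earlier results of these data known. A share of called members above that of all genes is thus a description and no test.

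**Figure D2:**
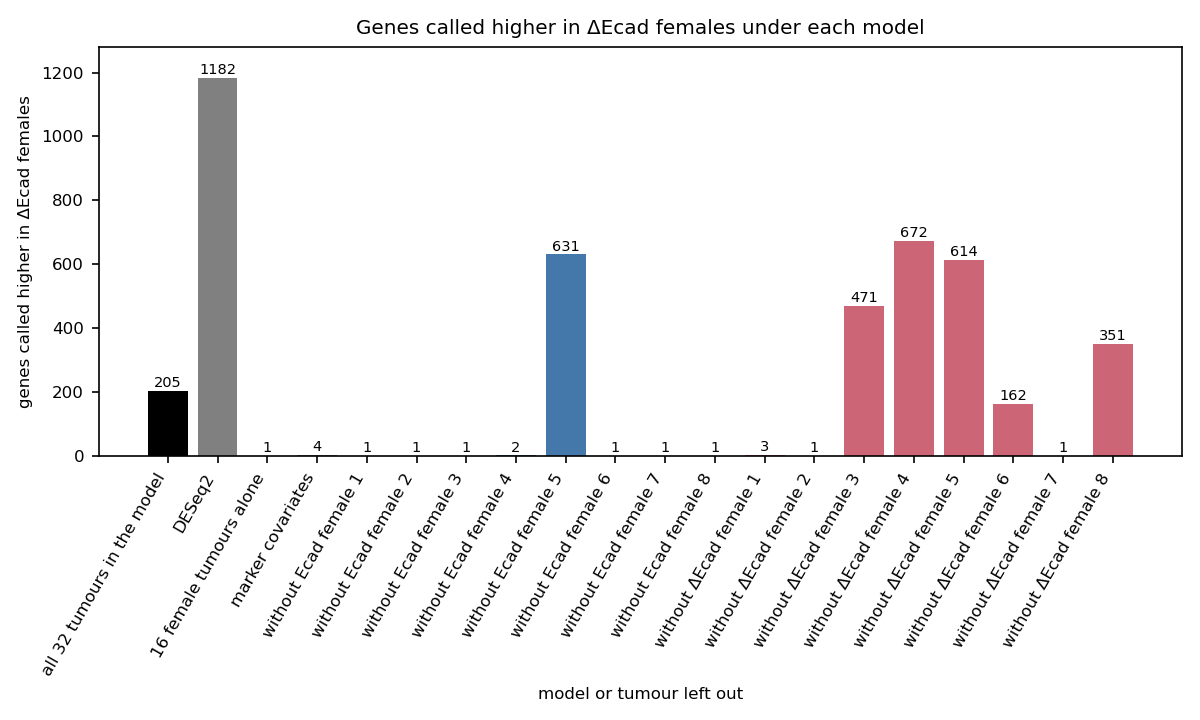
Number of genes called higher in ΔEcad females (vertical axis) with all 32 tumours in the model (black), under 3 other models (grey) and with each Ecad (blue) or ΔEcad (red) female tumour left out. The 205 genes of the full model became 1 without Ecad female 1, 2, 3, 6, 7 or 8 or ΔEcad female 2 or 7, and 672 without ΔEcad female 4.

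Grpr encodes the receptor for gastrin-releasing peptide, which signals through Gq proteins, and was the single gene called whichever tumour was left out. It was at 73.1, 3.52, 263, 117, 31.5, 11.9, 4.66 and 206 TPM in ΔEcad females 1 to 8, and at 0.02, 0, 0, 0.22, 0.34, 0, 0 and 0 TPM in Ecad females 1 to 8. The genotypes did not overlap, while the ΔEcad females themselves spread over a wide range. The difference was 10.20 ± 1.36 (SE) on the log2 scale (adjusted p 0.00034 by edgeR), and it lay between 9.76 and 11.35 with each tumour left out in turn. Grpr was highest in ΔEcad females 3, 8 and 4, of which 3 and 4 had 0 TPM of Krt14, and lowest in 2, which had the most Krt14. ΔEcad females 8 and 1, both rich in Krt14, had 206 and 73.1 TPM of Grpr. ΔEcad female 5, with little Krt14, had 31.5 TPM of Grpr. A relation of Grpr to Krt14 was not tested. With the keratinocyte and melanocytic marker levels as covariates the log2 fold change was 9.995 (adjusted p 8.8e-05 by edgeR). Of the 13 genes listed for bombesin-type peptides, their receptors, Gq proteins and phospholipase C beta, 10 were tested. Grpr alone of them was called, where 1.16% of all genes were called higher. The median of the list was 0.31, or 0.06 without ΔEcad female 6, and Gna11, the most abundant member and a Gq protein, stood at -0.41 ± 0.36 SE (adjusted p 0.668 by edgeR). The promoter window of Grpr is shown because this was the largest stable difference. The 300 bases are those of RefSeq on GRCm38.p6, chrX:163549687-163549986, minus strand, 250 bases before to 50 after the gene's start, and capitals mark the letters TGACGT, a core of the cyclic AMP response element, found once at bases 171 to 176 of the window.
Grpr: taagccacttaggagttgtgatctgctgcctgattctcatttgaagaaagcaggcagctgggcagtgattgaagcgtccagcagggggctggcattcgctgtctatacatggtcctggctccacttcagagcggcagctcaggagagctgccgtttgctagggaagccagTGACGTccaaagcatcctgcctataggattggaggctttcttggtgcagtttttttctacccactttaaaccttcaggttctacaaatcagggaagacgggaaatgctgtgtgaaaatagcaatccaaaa
On either strand, TGACGT was found in 7.51% of 32851 such windows of mouse genes. The palindromic oestrogen response element, the TCF/LEF cores CTTTGA and CTTTGT and the TEAD core GGAATG, searched for on both strands, were found in 0.07%, 16%, 18.7% and 14.7% of all windows, and these letters were not in the Grpr window.

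Hair follicle genes were among the called genes with the largest fold changes, and the list described here held 10 of the 205 genes called higher. Of 15 genes listed for the hair shaft and inner root sheath, the keratinised layers made by a growing follicle, 14 were tested and 10 were called higher, against 1.16% of all genes. This list too was chosen with earlier results of these data known. The list's median log2 fold change was 8.08, or 7.89 with Krt34, which had 0 counts in every Ecad female, set at the bound that 3 counts per tumour allow. Krt27, a keratin of the inner root sheath, was at 66, 1028, 0, 0, 0, 31.6, 141 and 0 TPM in ΔEcad females 1 to 8, against 0 to 0.2 TPM in Ecad females (log2 fold change 11.14 ± 2.41 SE, adjusted p 0.0394 by edgeR). Tumours 1, 2, 6 and 7 thus held all of it, and tumours 3, 4, 5 and 8 lay with the Ecad group. Hoxc13, the homeobox factor of hair keratin genes, was at 0 to 0.06 TPM in Ecad females against 0 to 31.2 TPM in ΔEcad females, with a median of 1.09 TPM (log2 fold change 7.78 ± 1.71 SE, adjusted p 0.0394 by edgeR). Tchh, trichohyalin of the inner root sheath, was at 0.03 to 0.64 TPM in Ecad females against 0.04 to 202 TPM in ΔEcad females. Krt33a, a hair shaft keratin, had at most 1 count in any Ecad female and reached 9.71 TPM in ΔEcad female 2. Krt71 was the most abundant member, at up to 1374 TPM in ΔEcad female 2 and up to 2.72 TPM in Ecad females, with an adjusted p of 0.0513 in edgeR. The other called members were Krt25, Krt28, Krt73, Krt31, Krt35 and Padi3. With each tumour left out in turn, between 0 and 14 members were called, 14 of them without ΔEcad female 3 and 0 without Ecad female 3. Grouped by symbol after the called genes were seen, keratin-associated proteins, which bind hair keratins, had 11 of 17 tested genes called higher, and keratins 15 of 42.

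Promoter windows are shown of the 4 inner root sheath keratins of the list that were called. Krt26 and Krt72, which lie outside the list, were called too, and their windows were searched but are not printed. They are Krt25 (chr11:99322902-99323201), Krt27 (chr11:99351069-99351368) and Krt28 (chr11:99374854-99375153), neighbours in the cluster of type I keratins, and Krt73 (chr15:101802311-101802610) of the type II cluster, all on the minus strand of GRCm38.p6 in RefSeq. Capitals mark the letters TATAAA, the TATA box.
Krt25: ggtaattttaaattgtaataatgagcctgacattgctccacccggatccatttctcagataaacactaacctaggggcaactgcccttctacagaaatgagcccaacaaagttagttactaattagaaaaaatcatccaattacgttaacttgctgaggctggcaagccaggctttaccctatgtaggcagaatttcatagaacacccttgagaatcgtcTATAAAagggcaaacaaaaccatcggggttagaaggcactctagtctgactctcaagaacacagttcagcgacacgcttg
Krt27: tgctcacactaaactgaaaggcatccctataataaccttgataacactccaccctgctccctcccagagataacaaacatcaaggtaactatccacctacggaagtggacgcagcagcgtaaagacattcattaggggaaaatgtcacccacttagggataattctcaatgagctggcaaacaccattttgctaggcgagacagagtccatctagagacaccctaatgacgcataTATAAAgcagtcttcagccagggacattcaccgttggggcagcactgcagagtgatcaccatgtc
Krt28: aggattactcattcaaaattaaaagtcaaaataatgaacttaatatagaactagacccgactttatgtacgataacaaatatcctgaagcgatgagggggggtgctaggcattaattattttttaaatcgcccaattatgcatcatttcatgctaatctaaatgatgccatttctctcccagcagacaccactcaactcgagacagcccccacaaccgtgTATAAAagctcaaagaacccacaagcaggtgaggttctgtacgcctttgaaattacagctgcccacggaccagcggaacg
Krt73: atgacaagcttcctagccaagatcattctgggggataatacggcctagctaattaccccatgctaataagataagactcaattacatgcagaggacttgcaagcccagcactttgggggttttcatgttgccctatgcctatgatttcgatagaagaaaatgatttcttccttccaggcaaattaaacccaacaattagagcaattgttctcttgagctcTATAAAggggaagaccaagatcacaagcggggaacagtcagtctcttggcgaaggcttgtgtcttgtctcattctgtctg
In the windows printed TATAAA stood once, from base 221 in Krt25, Krt28 and Krt73 and from base 236 in Krt27. Krt26 had it from bases 93 and 221, and Krt72 had it from base 48 and on the other strand. It was found on either strand in 13.6% of all windows and overlapped none of the other motifs searched. Of the other letters searched for, the TCF/LEF core CTTTGT was found once in Krt25 and CTTTGA at 2 places in Krt28.

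Epidermal keratinocyte genes took the same side without passing the test. Krt14 was at 0 to 1141 TPM with a median of 0.195 TPM in Ecad females, and at 0 to 9186 TPM with a median of 2792 TPM in ΔEcad females. Of the Ecad tumours, 3 and 5 alone exceeded 1 TPM, and of the ΔEcad tumours 3 and 4 had none, so that the groups overlapped (log2 fold change 4.33 ± 2.19 SE, adjusted p 0.346 by edgeR). In the basal keratinocyte list 0 of 8 tested genes were called, 6 had an unadjusted p under 0.05 and a higher level, and the median log2 fold change was 4.78. Krt15, a keratin of basal and follicle stem cells, came closest (log2 fold change 7.89 ± 2.17 SE, adjusted p 0.0537 by edgeR). In the suprabasal and cornified list all 13 had an unadjusted p under 0.05 and 0 were called, with a median of 5.86. Ivl, an envelope protein of the horny layer, had the smallest p (adjusted 0.0518 in edgeR), and Krt10, the most abundant, was at 0.09 to 219 TPM in Ecad females against 1.67 to 9176 TPM in ΔEcad females. DESeq2 called 5 of the 8 basal and 11 of the 13 suprabasal genes higher, against 6.67% of all genes. The summed level of the 8 basal genes was 6.0 to 1496 TPM in Ecad females against 19.5 to 16651 TPM in ΔEcad females. Of 16 tested genes of desmosomes, tight junctions and epithelial regulators, 14 had an unadjusted p under 0.05 with a higher level and 0 were called, at a median of 4.46. Cldn1, a tight junction protein, had the smallest p (adjusted 0.0719 in edgeR). Perp, a desmosomal membrane protein and the most abundant of them, had a median of 0.16 TPM in Ecad females against 452 TPM in ΔEcad females. Of 9 simple, mucosal and stress keratins tested, Krt4 alone was called, where 1.16% of all genes were called higher. Of the 9, 7 were above 0 and 2 below, and 3 had an unadjusted p under 0.05 with a higher level (median log2 fold change 2.67). With the keratinocyte and melanocytic levels as covariates the list's median was -2.51, and 2 members were called lower. No Ecad female had more than 1 count of Krt4, and it stood at 70.3 TPM in ΔEcad female 8 and 0 to 2.48 TPM in the other ΔEcad females.

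**Figure D3:**
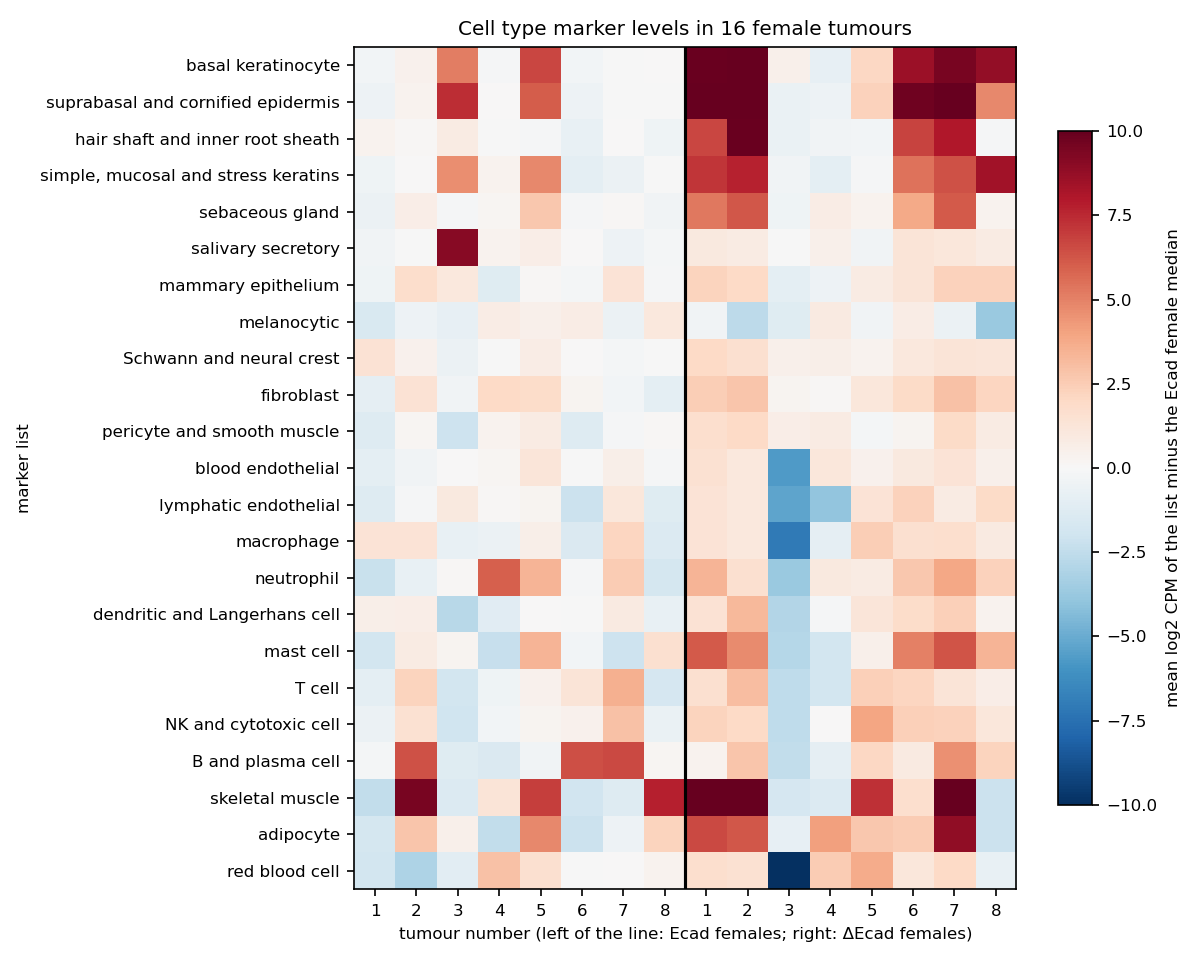
Level of each cell type marker list (rows) in each of the 16 female tumours (columns), as the mean log2 CPM (counts scaled to the library size) of the list minus the median of the Ecad females, in red where higher and blue where lower, with values beyond 10 drawn in the end colour. Keratinocyte, hair and mast cell lists were high in ΔEcad females 1, 2, 6 and 7. Before subtraction, ΔEcad female 8 was at 7.36 in the basal keratinocyte list, against an Ecad median of -1.45. In the hair list it was at -4.38, close to the Ecad median of -4.29. The salivary list was high in Ecad female 3, and ΔEcad female 3 was low in endothelial, macrophage and red blood cell lists.

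Lists of other residents of skin stood on the same side. Of 9 sebaceous gland genes tested, 8 had an unadjusted p under 0.05 and a higher level, and 0 were called (median log2 fold change 4.21). Far2, which makes the fatty alcohols of sebum, did not exceed 0.71 TPM in any Ecad female and was at 20.9, 40.3, 5.02 and 15.9 TPM in ΔEcad females 1, 2, 6 and 7, but at 0.01 to 0.19 TPM in the other 4 (adjusted p 0.0509 by edgeR). All 6 mast cell genes had an unadjusted p under 0.05 with a median of 3.97, and 0 were called. Cma1, mast cell chymase, was at 0 to 6.73 TPM in Ecad females against 0.07 to 89.7 TPM in ΔEcad females (adjusted p 0.0908 by edgeR). Cd207, langerin of the Langerhans cells of the epidermis, was called. No Ecad female had more than 1 count of it, and it stood at 8.59, 9.19, 2.26 and 1.87 TPM in ΔEcad females 1, 2, 6 and 7. It was the 1 called gene of 8 dendritic and Langerhans cell genes tested, where 1.16% of all genes were called higher. All 8 adipocyte genes had an unadjusted p under 0.05, with 0 called and a median of 3.96, or 2.30 without ΔEcad female 7. Fabp4, a fatty acid carrier of fat cells, was at 6.23 to 70.1 TPM in Ecad females against 2.77 to 1098 TPM in ΔEcad females (adjusted p 0.0572 by edgeR). Of 11 skeletal muscle genes, all had a fold change above 0 and 0 were called (median 2.09). With a tumour left out the median lay between 1.63 and 4.01, the latter without Ecad female 2. With the keratinocyte and melanocytic levels as covariates it was -0.14. Acta1, skeletal actin, ranged from 0 to 1879.6 TPM in Ecad females against 0.05 to 15087 TPM in ΔEcad females, a spread wider than the difference (adjusted p 0.401 by edgeR).

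The 205 genes called higher were chosen for this difference, and their spread over the tumours is a description. ΔEcad females 1, 2, 6, 7 and 8, whose basal keratinocyte levels were 8.42, 8.79, 7.10, 8.05 and 7.36 (mean log2 CPM), lay above every Ecad female in 96.1%, 98.0%, 80.5%, 94.6% and 69.3% of the 205 genes. Over all genes tested the same tumours did so in 15.9%, 21.8%, 9.19%, 13.5% and 21.3%. ΔEcad females 3, 4 and 5, with basal levels of -0.92, -2.25 and 0.62, did so in 39.5%, 12.7% and 11.7% of the 205 genes, and in 20.7%, 7.72% and 6.15% of all genes. ΔEcad female 3, low in keratinocyte markers, thus stood above every Ecad female in 81 of the called genes. ΔEcad female 2 held the highest value of 122 of them. With the keratinocyte and melanocytic levels as covariates, 4 genes were called higher (0.0226%) and 8 lower (0.0452%), the median log2 fold change of the 205 genes went from 5.18 to 1.78, and that of the hair list from 8.08 to 0.95. Of the 213 genes, 4 were called in that fit too. The covariates hold keratinocyte genes themselves, so that these 2 sets of values are not separate measurements.

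Calls were also found among contractile genes. Of 9 genes of pericytes and smooth muscle, the cells that wrap blood vessels, 3 were called higher, where 1.16% of all genes were, and the median log2 fold change was 1.89, or 0.90 without ΔEcad female 3. Notch3, a Notch receptor of pericytes, was at 23.9, 27.1, 15.1, 8.36, 3.37, 11.5, 14.4 and 21.1 TPM in ΔEcad females 1 to 8, and at 2.04, 3.13, 0.77, 6.47, 8.9, 2.15, 5.15 and 2.39 TPM in Ecad females 1 to 8. Of the ΔEcad tumours, 6 lay above every Ecad tumour and all 8 above the Ecad median (log2 fold change 1.96 ± 0.44 SE, adjusted p 0.0394 by edgeR). Cnn1, calponin of smooth muscle, was at 0 to 1.1 TPM in Ecad females against 0.22 to 45.6 TPM in ΔEcad females. Acta2, smooth muscle actin and the most abundant member, reached 3978 TPM in ΔEcad female 3, against 32.2 to 155 TPM in the other ΔEcad females and 8.46 to 231 TPM in Ecad females. Without ΔEcad female 3 the log2 fold change of Acta2 went from 3.06 to 0.68 (adjusted p 0.54 by edgeR), that of Cnn1 from 3.88 to 2.34 (adjusted p 0.079 by edgeR), and Notch3 was the 1 member still called. Among 9 blood endothelial genes 0 were called, with a median of 0.63, and the level of the list was 3.25 to 5.46 (mean log2 CPM, counts scaled to the library size) in Ecad and from 4.64 to 5.74 in the ΔEcad females other than 3, which was at -1.42. Among 10 fibroblast genes 0 were called and 4 had an unadjusted p under 0.05 with a higher level (median 1.40). Dpt, dermatopontin of the dermal matrix, was at 0.82 to 40.4 TPM in Ecad females against 4.52 to 219 TPM in ΔEcad females (adjusted p 0.0832 by edgeR), and all 8 ΔEcad females were above the Ecad median in the level of the list.

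In the other immune lists no gene was called. Medians were 0.23 for 11 macrophage, 0.27 for 10 T cell and 1.25 for 7 natural killer and cytotoxic genes, with 0, 0 and 2 members at an unadjusted p under 0.05 and a higher level. With 1 tumour left out the medians ranged from -0.04 (without ΔEcad female 5) to 1.00 (without Ecad female 7) for macrophages, from -0.11 (without ΔEcad female 2) to 1.25 (without Ecad female 7) for T cells and from 0.82 to 3.08 for natural killer cells, so that macrophage and T cell lists had no stable direction. Lyz2, lysozyme and the most abundant macrophage gene, ranged over 119 to 2361 TPM in Ecad females and stood at 12.5 TPM in ΔEcad female 3 and 12822 TPM in ΔEcad female 8, the ends of the ΔEcad range. Cd4, of helper T cells and macrophages, was at 0.31 to 13.4 TPM in Ecad females against 0 to 14.9 TPM in ΔEcad females. The median of 7 B and plasma cell genes was -2.83, where 3 had a lower level and an unadjusted p under 0.05 and 0 were called. Igkc, the immunoglobulin kappa constant gene, was at 22464, 17967 and 3320.2 TPM in Ecad females 6, 7 and 2 and at 1.06 to 34.6 TPM in the other Ecad females, against 0 to 1882 TPM in ΔEcad females. The medians of the groups stood the other way, at 27.7 TPM in Ecad females against 202 TPM in ΔEcad females. Igkv10-94, a kappa variable segment whose reads can be shared with close copies, which makes it uncertain, was called lower and was above 1 TPM in the same 3 Ecad females. The secretory leukocyte protease inhibitor Slpi, also called lower (log2 fold change -4.81 ± 1.10 SE, adjusted p 0.0394 by edgeR), was at 1307, 1228 and 286 TPM in Ecad females 7, 6 and 4 and at 2.16 to 36.7 TPM in ΔEcad females, and Ecad female 8 lay below all of these, at 0.51 TPM.

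The remaining lower calls rested on few tumours. Of 4 salivary genes tested, Bpifa2, a secreted protein of the parotid gland, and Amy1, salivary amylase, were called lower, against 0.0452% of all genes. Bpifa2 was at 8313 TPM in Ecad female 3 and 0 to 0.53 TPM in the other Ecad females, against 0 to 1.14 TPM in ΔEcad females. Amy1 was at 5037 TPM in Ecad female 3, at 0.12 to 2.05 TPM in the other Ecad females and at 0.39 to 13.8 TPM in ΔEcad females. Without Ecad female 3 the log2 fold changes were 1.03 and 2.70, with the sign reversed, and the list's median went from -3.94 to 0.75. Car6, the most abundant gene of the list, was at 18.7 to 3059 TPM in Ecad females against 168 to 3203 TPM in ΔEcad females and did not pass (adjusted p 0.933 by edgeR). Gm15728 was at 32.8 TPM in Ecad female 3 and Myrf, a factor of myelin genes, at 66.6 TPM in Ecad female 1, where no other female had more than 0.8 and 4.11 TPM of them. Mgat4a, which branches the sugars of glycoproteins, was at 2.9 to 38.9 TPM in Ecad females against 0.87 to 4.9 TPM in ΔEcad females, all 8 of them under the Ecad median (log2 fold change -1.06 without Ecad female 3 and, with all tumours, -1.87 ± 0.49 SE, adjusted p 0.0497 by edgeR). Grm5, a glutamate receptor, was at 23.8 and 13.1 TPM in Ecad females 6 and 8, at 0.02 to 1.64 TPM in the other Ecad females and at 0.01 to 0.35 TPM in ΔEcad females, with 8 of 8 under the Ecad median (log2 fold change -6.40 ± 1.67 SE, adjusted p 0.0497 by edgeR).

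Melanocytic genes stood on the lower side without a call. All 13 had a log2 fold change below 0, where 48.4% of all genes were above 0, with a median of -0.53, and 1 had an unadjusted p under 0.05. Mitf, the master factor of the lineage, was at 30.4 to 590.5 TPM with a median of 115 TPM in Ecad females against 21.3 to 179 TPM with a median of 65.5 TPM in ΔEcad females (log2 fold change -1.26 ± 0.51 SE, adjusted p 0.196 by edgeR). The summed level of the list was lowest in ΔEcad female 2, at 6881 TPM, and highest in Ecad female 8, at 81280.4 TPM. As mean log2 CPM it was lowest in ΔEcad female 8, at 5.82, with ΔEcad female 2 next at 6.97. The list's median fold change was -1.08 without ΔEcad female 4 and -0.98 without ΔEcad female 6. With other tumours left out it came as near to 0 as -0.36, and in males it was -0.36. Pigment cells are rich in lysosome-related organelles. Of 7 lysosomal genes 6 were below 0, with a median of -0.45, or -0.52 with the keratinocyte and melanocytic levels as covariates. Of the 7, 3 had an unadjusted p under 0.05 with a lower level and 0 were called. A relation of these genes to melanocytic content was not tested. Ctsb, cathepsin B, was at 1852 to 8453 TPM in Ecad females against 1039 to 3345 TPM in ΔEcad females, all 8 of them under the Ecad median of 4558 TPM (log2 fold change -1.33 ± 0.38 SE, adjusted p 0.0591 by edgeR). Of 13 MAPK feedback genes, which are switched on by signalling from RAS, 11 were below 0, with a median of -0.52, 1 at an unadjusted p under 0.05 and 0 called. Spry2, an inhibitor of receptor signalling, was at 35.8 to 187 TPM in Ecad females against 31.2 to 125 TPM in ΔEcad females, again with 8 of 8 under the Ecad median (adjusted p 0.135 by edgeR). Of 9 genes of the BCL2 family of cell death regulators, 3 had an unadjusted p under 0.05 with a lower level and 1 with a higher level (median -0.28), and 0 were called. Bcl2l1, the survival protein BCL-XL, had a median of 233 TPM in Ecad females against 123 TPM in ΔEcad females (adjusted p 0.193 by edgeR). Medians were -0.23 for 11 nuclear genes of the respiratory chain, -0.29 for 12 of hypoxia and glycolysis and 0.37 for 15 of the cell cycle, with 0 members of the 3 lists called in edgeR, 0 in DESeq2 and 0 at an unadjusted p under 0.05. The median of the cell cycle list was -0.10 without ΔEcad female 3, and that of hypoxia and glycolysis 0.07 without Ecad female 4.

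Signalling lists held few calls in edgeR. DESeq2 called 4 of 13 Wnt and beta-catenin targets, 4 of 11 Notch genes and 2 of 4 Hedgehog genes higher. It called 1 gene higher in each of the YAP and TEAD, cadherin and catenin, and EMT lists. Over all genes, 6.67% were called higher by DESeq2. All 11 genes of Notch receptors, ligands and targets had a fold change above 0, with a median of 0.99. Of these, 7 had an unadjusted p under 0.05 and Notch3 was called in edgeR, where 1.16% of all genes were called higher. Hes1, a Notch target and the most abundant member, was at 39.7 to 107 TPM in Ecad females against 40.9 to 133 TPM in ΔEcad females (log2 fold change 0.37 ± 0.33 SE, adjusted p 0.681 by edgeR). Of 13 tested Wnt and beta-catenin targets, 5 had an unadjusted p under 0.05 with a higher level and 0 were called. The median was 0.08, and it turned to -0.32 without ΔEcad female 4 and was 0.62 without Ecad female 4. Apcdd1, a Wnt inhibitor of the hair follicle, had 6 of 8 ΔEcad females above every Ecad female, with medians of 2.77 TPM in Ecad females against 16.5 TPM in ΔEcad females (log2 fold change 2.96 ± 0.81 SE, adjusted p 0.0541 by edgeR). Ccnd1, cyclin D1, had all 8 ΔEcad females under the Ecad median of 1621 TPM, at 136 to 1228 TPM, with Ecad females at 94.6 to 2199 TPM (adjusted p 0.485 by edgeR). Of 4 tested Hedgehog genes 3 had an unadjusted p under 0.05 with a higher level and 0 were called. Gli1, a target of the pathway, was at 61.4 TPM in ΔEcad female 2 (adjusted p 0.0837 by edgeR). The median of 11 YAP and TEAD targets was 0.27, and -0.16 without ΔEcad female 3, with 2 at an unadjusted p under 0.05 with a higher level and 0 called. Ajuba, a partner of the Hippo kinases, was at 4.7 to 22.9 TPM in Ecad females against 13.1 to 79.2 TPM in ΔEcad females (adjusted p 0.0572 by edgeR). Of 9 cadherin and catenin genes 4 had an unadjusted p under 0.05 with a higher level and 0 were called. Ctnnb1, beta-catenin itself, was at 764 to 1277 TPM in Ecad females against 247 to 1773 TPM in ΔEcad females (log2 fold change -0.35 ± 0.34 SE, adjusted p 0.705 by edgeR). Of 9 tested EMT factors, regulators of the shift from an epithelial to a mesenchymal state, 0 were called, at a median of 0.31. Snai1 was at 533 TPM in ΔEcad female 3 and 7.25 to 33.1 TPM in the other ΔEcad females, against 1.37 to 41 TPM in Ecad females.

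Genes of steroid hormones were examined because the study asks about sex and oestrogen. Of 12 steroid-converting enzymes, 10 were tested and 3 were called higher, against 1.16% of all genes. Of the 10, 5 were above 0 and 5 below, with a median of 0.68. It was -0.05 in the fit of the 16 female tumours, 0.04 with the covariates and -0.04 without ΔEcad female 8. The fit of the 16 tumours tested 15753 genes in place of 17717, so that fewer members may stand behind its median. Akr1c14, a hydroxysteroid dehydrogenase, was at 1.55, 4.99, 5.15, 0.36, 0.9, 0.5, 4.03 and 1.94 TPM in ΔEcad females 1 to 8 and at 0 to 0.43 TPM in Ecad females, so that 7 of 8 lay above every Ecad female (log2 fold change 3.58 ± 0.65 SE, adjusted p 0.0393 by edgeR). It was 1 of the 4 genes called higher with the marker covariates as well, at a log2 fold change of 3.08, and it overlaps Gm18857, which makes it uncertain. Akr1c18, which inactivates progesterone, was at 0 to 0.74 TPM in Ecad females against 0 to 100.5 TPM in ΔEcad females, above every Ecad female in 7 of 8. Hsd17b2, which inactivates oestradiol and testosterone, had no more than 3 counts in any Ecad female and stood at 8.98 and 11.7 TPM in ΔEcad females 1 and 2 and 0 to 1.44 TPM in the others. With the covariates the log2 fold changes of Akr1c18 and Hsd17b2 were 2.73 and 1.68, with adjusted p of 0.49 and 0.74 in edgeR. Hsd17b11, the most abundant enzyme, was at 73.9 to 413 TPM in Ecad females against 34.1 to 255 TPM in ΔEcad females (adjusted p 0.47 by edgeR). Of 9 genes from which the study's methods compute a score of oestrogen receptor activation, 4 were tested, 2 had an unadjusted p under 0.05 with a higher level and 0 were called. DESeq2 called 2 of the 4 higher, against 6.67% of all genes. Rspo1, a Wnt agonist, was at 0 to 0.31 TPM in Ecad females against 0 to 10.6 TPM in ΔEcad females, with 6 of 8 above every Ecad female (adjusted p 0.0521 by edgeR). Egr3, the most abundant, was at 5.17 to 58.5 TPM in Ecad females against 7.41 to 41.6 TPM in ΔEcad females (adjusted p 0.764 by edgeR).

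**Figure D4:**
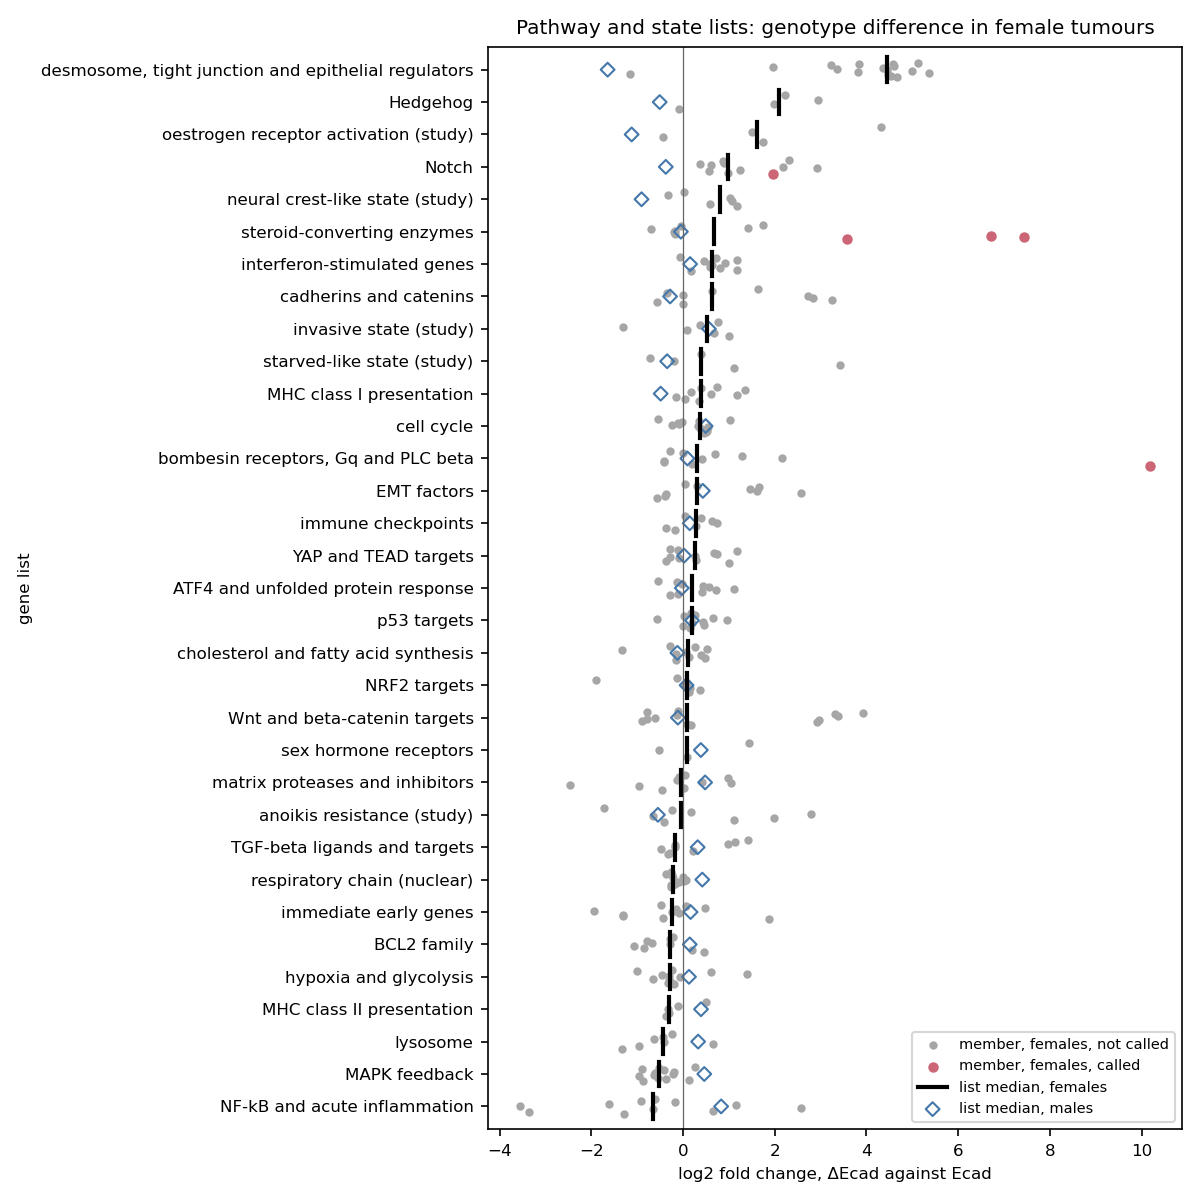
Log2 fold change of ΔEcad against Ecad tumours (horizontal axis) for the members of each pathway or state list in females (grey, or red where called), with the list median in females as a black bar and in males as an open diamond. Most list medians lay between -1 and 1, and the members called in edgeR were Grpr, Notch3 and 3 steroid-converting enzymes.

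Of the 15 genes called higher with the smallest p, several were spread over most ΔEcad tumours. Rasl11a, a small GTPase of the RAS superfamily, was at 0.35 to 2.45 TPM in Ecad females against 1.16 to 106 TPM in ΔEcad females, 7 of 8 above every Ecad female (log2 fold change 3.42, and 1.96 without ΔEcad female 3, which held the highest value). Myl9, a myosin light chain of contractile cells, was at 8.41 to 45.5 TPM in Ecad females against 31.1 to 677 TPM in ΔEcad females (log2 fold change 2.50, and 1.59 without ΔEcad female 3). Both were called with the covariates too. Rnase4, a secreted ribonuclease that shares its locus with Ang and is uncertain, was at 25.3 to 50.9 TPM in Ecad females against 12 to 364 TPM in ΔEcad females, 7 of 8 above every Ecad female (log2 fold change 1.77 ± 0.35 SE, adjusted p 0.0394 by edgeR). The unannotated Gm28802 had at most 2 counts in any Ecad female. Among the others, Epha4 (an ephrin receptor), Ptprf (a receptor tyrosine phosphatase), Gabrp (a GABA receptor subunit), Cntn2 (a neural adhesion protein) and Foxe1 (a forkhead factor of the hair follicle) were near the Ecad level in ΔEcad females 4 and 5. Ptprf, for one, was at 39.5, 67.7, 16.2, 0.87, 0.96, 15, 28.1 and 63.9 TPM in ΔEcad females 1 to 8, against 0.27 to 3.96 TPM in Ecad females. Npr3, the clearance receptor of natriuretic peptides, and Alox12, a lipoxygenase of platelets, were highest in ΔEcad female 8, at 76.9 and 73 TPM. Other annotated genes also overlap Notch3, Tchh, Hsd17b2, Npr3, Foxe1, Slpi, Amy1, Mgat4a and Grm5 among the called genes named, and Far2, Gli1, Ctsb, Ctnnb1, Ccnd1 and Avil among the others, and their counts are uncertain to that extent.

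Full separation of the 8 ΔEcad from the 8 Ecad tumours in TPM was rare. It was found for 5 higher genes, 0.0282% of those tested, and 1 lower gene, 0.00564%. The higher ones were Grpr, Gm28802, Gm9908, S100a3 and Avil, the last of which, an actin-severing protein, was not called (adjusted p 0.0686 by edgeR). S100a3, a calcium-binding protein of the hair cuticle, was at 0 to 0.21 TPM in Ecad females against 0.36 to 11.1 TPM in ΔEcad females, and overlaps S100a2. The lower one was Hic2, a transcriptional repressor, at 3.39 to 5.22 TPM in Ecad females against 1.83 to 3.31 TPM in ΔEcad females (log2 fold change -0.70 ± 0.27 SE, adjusted p 0.167 by edgeR). Gm9908, S100a3, Avil and Hic2 were chosen for this separation after their values were seen.

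The same lists stood differently in males, though no gene passed the test of the difference. Krt14 had a median of 1604 TPM in Ecad males, 2792 TPM in ΔEcad females, 264 TPM in ΔEcad males and 0.195 TPM in Ecad females, so that by this median Ecad females were the lowest of the 4 groups. List medians in males were -1.72 for basal keratinocytes, -1.16 for the suprabasal epidermis, -0.14 for the hair shaft and inner root sheath, -1.52 for adipocytes and 0.09 for mast cells, against 4.78, 5.86, 8.08, 3.96 and 3.97 in females. The 205 genes had a median of -0.79 in males, and 44 of them were above 0 there. For the interaction of genotype and sex, 0 genes were called in edgeR, with the smallest adjusted p at 0.0509. The male values and this interaction include the library labelled ΔEcad male 2, which went against its sex label, and are not given without it. Without adjustment 3131 genes (17.7%) had a p under 0.05, and DESeq2 called 1225. Grpr had medians of 0.065 TPM in Ecad males and 0.19 TPM in ΔEcad males (interaction adjusted p 0.0526 in edgeR).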

How the data were processed

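The 32 primary melanomas were sequenced from stranded mRNA libraries on a NovaSeq, and the authors aligned the reads with STAR to mm10 (GRCm38, GENCODE M13 annotation) and deposited raw counts per gene together with TPM (transcript abundance scaled to gene length and library size). A batch correction was applied by the authors only to some data, and the counts deposited are whole numbers. Use of strand in counting is not given in the sources used here, so that overlapping genes are uncertain. The counts of 50600 genes were fitted with edgeR 4.0.16 (R 4.3.3, filterByExpr, TMM factors, robust quasi-likelihood, 1 coefficient per sex and genotype), and p-values were adjusted by Benjamini-Hochberg over 17717 genes. TPM served for levels. A list's level is its mean log2 CPM with a prior count of 1. In simulated data, 58% of log2 changes of 2 and 85% of changes of 4 were called, with 6 unchanged genes. Members and lists were chosen with earlier results of these data known. Named genes are the called or leading member of each list by p, its most abundant member, the 15 called higher with the smallest p and the 8 called lower. Alternatives used DESeq2 1.42.0 and limma 3.58.1. Coordinates are from GENCODE M21. The receptors of sex hormones are not reported here. No female libraries were close enough to be counted as 1 (highest correlation 0.983).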

Additional observations from a re-analysis of the deposited data

Results flagged for a closer look

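In 118 groups of 8 female tumours, each a list's level or a gene's value in 1 genotype, the tumour farthest from the others was set against Dixon's 95% critical value for its gap over the group's range. Chance passes about 1 in 20 groups, and 13 passed. Of these, 6 were ΔEcad female 3, and their levels are given as mean log2 CPM. It stood lowest in the blood endothelial list at -1.42 (the next tumour at 4.64), the macrophage list at -2.42 (3.74), the neutrophil list at -4.69 (-0.12), the red blood cell list at -5.59 (3.65) and the MHC class II list at -3.01 (2.20), and highest in the EMT factors at 7.60 (5.64). Ecad female 3 was far above the others in the salivary list at 6.06 (-2.41) and below them in the cell cycle list at 3.06 (4.53). Ecad female 5 was highest in the sebaceous list at 1.93 (-0.08) and in cadherins and catenins at 5.72 (4.92). Ecad female 7 was highest in MHC class I at 8.55 (6.03) and lowest in cholesterol and fatty acid synthesis at 5.58 (6.37). Xist, the RNA of the inactive X chromosome, was lowest in Ecad female 6 at 6.01 log2 CPM, with the next Ecad female at 8.49. The source of these tumours' distance was not tested.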

How the results depend on the processing

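Against 205 genes higher and 8 lower in ΔEcad females, the counts were 1 and 0 with only the 16 female tumours, 308 and 14 with RLE size factors, 339 and 13 with upper quartile factors, 324 and 9 with library size only, 458 and 97 with no filter on low counts, 86 and 1 with a filter of 1 CPM in 8 tumours, 4 and 8 with the keratinocyte and melanocytic levels as covariates, 96 and 5 without the library labelled ΔEcad male 2, and 1182 and 99 with DESeq2. In limma, voom with quality weights and log2(TPM + 1) or log2(TPM + 0.1) each gave 1 and 0. With library size only, the median of all genes moved by 0.11 on the log2 scale. Leaving out 1 tumour gave 1 to 672 higher and 0 to 45 lower. The interaction of genotype and sex gave 201 genes with RLE size factors and 1225 with DESeq2. Bpifa2 turned to 0.84 with DESeq2 and ranged from -12.89 to 1.03 with 1 tumour left out, and Amy1 turned to 1.64 with DESeq2 and 1.22 with the replicate block, ranging from -8.31 to 2.70 with 1 tumour left out; Ecad female 3 held nearly all of both. Of other values for single genes, 258 kept their side of the threshold, and of these only Cdh1, near 0, changed sign, in 11 of 22 alternatives, while 279 kept the direction but lost the call. The median of a list moved by more than its spread in 4 of 168 cases, and the number of its members called higher moved by more than 1.5 times in 35 cases and not in 49. The tumour number as replicate block left 1 gene higher and 0 lower. Same-numbered tumours of the 2 genotypes correlated in their deviations between -0.30 and 0.27, and number 4 alone correlated best with its own number. The numbers were taken as names and not as a pairing. A shared litter or batch need not show in these correlations, so that they cannot exclude a pairing. For these results the cause of each change was not tested. The depth of at least 24036333 counts leaves low genes uncertain, such as those with at most 3 counts in every Ecad female, 53 of the 205.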

Other observations

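Further lists were counted in the same way, and no member of them was called by edgeR. Among 10 Schwann and neural crest genes the median log2 fold change was 1.20, with 3 members at an unadjusted p under 0.05 and a higher level, and all 8 ΔEcad females were above the Ecad median of the list's level. Among 11 interferon-stimulated genes 10 were above 0 and 0 had an unadjusted p under 0.05, at a median of 0.64, or 0.09 without ΔEcad female 6. The median was 0.40 for 9 genes of MHC class I presentation and -0.30 for 5 of MHC class II presentation, and without Ecad female 7 they were 1.43 and 1.88. Of 11 genes of NF-kB and acute inflammation 3 were above 0, at a median of -0.66 in females and 0.83 in males, but the female median was 0.29 with DESeq2 and 1.33 without Ecad female 4, so that its direction was not stable. The 6 genes by which the study scored an invasive state had a median of 0.53, and -0.06 without ΔEcad female 3, and the 6 of its neural crest-like state had a median of 0.81. Among 11 p53 targets the median was 0.19, among 10 genes of ATF4 and the unfolded protein response 0.19, and among 9 ligands and targets of TGF-beta -0.17, which turned to 0.13 without Ecad female 6.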
